A study of Mus musculus with 6 samples.

Results

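The transcripts of 4 sphingosine-1-phosphate (S1P) receptors, S1pr1, S1pr2, S1pr4 and S1pr5, and of the transcription factor Klf2 were compared between CD36+ NK and CD36- NK cells of fibrotic mouse liver. They were chosen by gene symbol from a deposited table of 57180 genes, in which each of the 5 symbols had 1 row, and all 5 passed the filter on low counts among 14761 tested genes. NK cells (CD3- NK1.1+) had been sorted by CD36 from the livers of wild-type male C57BL/6J mice aged 6 to 8 weeks. All mice had received carbon tetrachloride (CCl4, 2.5 ml/kg of a 20% solution in olive oil, 2 intraperitoneal injections a week over 4 weeks), and livers were harvested 48 h later, so both groups came from fibrotic livers and no untreated group was part of the comparison. Each group had 3 RNA-seq libraries made from 400 ng of total RNA and called biological triplicates. Whether cells of several mice were pooled is not given in the sources used here, so the p-values measure the spread between these samples.

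S1P is a lipid that is abundant in blood and lymph and scarce inside tissues, and lymphocytes leave tissues along this gradient through G protein-coupled S1P receptors. S1PR1 is the main egress receptor of T and B cells, and S1PR5 is known for moving mature NK cells out of bone marrow and lymph nodes into blood. S1PR4 is found mainly on hematopoietic cells, whereas S1PR2 couples to G12/13 proteins and can oppose migration toward S1P. KLF2 is a zinc-finger factor that switches on S1pr1 in lymphocytes, and T-bet, encoded by Tbx21, is needed for S1pr5 in NK cells.

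The sequence upstream of the start site is shown because KLF2 is a DNA-binding factor. It is given as 250 bases 5′ to 3′ on the strand of the gene. The sequences were taken from a set of promoter windows based on RefSeq annotation of GRCm38.p6. The set used here had an entry for 4 of the 5 genes and none for S1pr1. Capitals mark CACCC or its reverse complement GGGTG, the core letters read by KLF factors. The windows are chr9:20976794-20977043 for S1pr2, chr10:81500138-81500387 for S1pr4 and chr9:21248444-21248693 for S1pr5, all on the minus strand, and chr8:72318812-72319061 on the plus strand for Klf2.
S1pr2: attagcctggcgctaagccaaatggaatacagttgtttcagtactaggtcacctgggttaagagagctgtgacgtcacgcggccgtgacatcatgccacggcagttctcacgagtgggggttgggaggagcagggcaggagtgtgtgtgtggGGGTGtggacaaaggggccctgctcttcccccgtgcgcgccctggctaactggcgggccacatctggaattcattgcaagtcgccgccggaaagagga
S1pr4: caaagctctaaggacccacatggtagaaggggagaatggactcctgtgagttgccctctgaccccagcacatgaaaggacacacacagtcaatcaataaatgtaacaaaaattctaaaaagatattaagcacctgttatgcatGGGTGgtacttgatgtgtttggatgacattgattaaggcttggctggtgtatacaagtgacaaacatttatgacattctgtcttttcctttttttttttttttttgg
S1pr5: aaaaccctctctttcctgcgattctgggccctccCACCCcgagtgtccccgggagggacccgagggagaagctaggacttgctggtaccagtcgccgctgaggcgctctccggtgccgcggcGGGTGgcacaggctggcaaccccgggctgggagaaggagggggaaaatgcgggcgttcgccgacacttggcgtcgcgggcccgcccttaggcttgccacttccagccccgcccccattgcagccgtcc
Klf2: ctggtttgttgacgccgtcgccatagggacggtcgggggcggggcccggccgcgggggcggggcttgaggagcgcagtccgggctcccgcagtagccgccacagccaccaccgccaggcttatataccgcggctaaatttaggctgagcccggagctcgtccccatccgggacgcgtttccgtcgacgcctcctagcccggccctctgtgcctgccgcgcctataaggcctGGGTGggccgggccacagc
The core was present 1 time in S1pr2, S1pr4 and Klf2 and 2 times in S1pr5. These letters are common, since 52.0% of 32851 promoter windows of the same length held them on either strand. The GC box GGGGCGGGG, or its reverse complement, was present 1 time in S1pr5 and 2 times in Klf2, without overlapping a capitalized match, and 10.4% of all windows held it. Neither the T-box core AGGTGT (11.8% of all windows) nor the FOXO core GTAAACA (3.17%) was found on either strand of the 4 windows. A match is a description of the letters and not of binding.

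The libraries held 10292480 to 13787189 counts, and Cd36 checked the labels. Levels are given as TMM-scaled CPM, counts corrected for library size, and differences as CD36+ NK over CD36- NK. Cd36 was at 110, 263 and 238 CPM in CD36+ NK and at 14.3, 31.7 and 17.1 CPM in CD36- NK (log2 fold change 3.27, SE 0.43, edgeR adjusted p = 0.00615). The sample titles, which these values follow, disagree with the names of the sequencing libraries about the CD36 sign.

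The libraries also differed in markers of the sorted cell type. All 12 of 12 NK lineage genes were lower in CD36+ NK by more than 2-fold at an adjusted p below 0.05, which is what a called gene means here, and their summed level was 1391 to 1737 CPM against 7219 to 9525 CPM. Gzma, a granule protease, was at 317 ± 21.8 CPM against 1883 ± 240.5 CPM (SD, n = 3 each). B cell markers were high in every library although the sort took CD3- NK1.1+ cells, with a summed level of 12028 to 13602 CPM in CD36+ NK, and 7223 to 9400 CPM for the CD36- NK libraries. Of the 12 macrophage and Kupffer cell genes, 10 were tested and 4 were called higher, with sums of 6736 to 9368 CPM and 2472 to 5812 CPM. The Kupffer cell gene Clec4f did not pass the filter on low counts, at 0 in all CD36- NK libraries and at 0 to 45.9 CPM in CD36+ NK. Of the 10 monocyte genes, 3 were called higher and 1 was called lower. Their summed level was 2964.5 to 3696.4 CPM in CD36+ NK and 2270.7 to 2736.7 CPM in CD36- NK. In bulk RNA, fewer cells of a type and less RNA per cell cannot be told apart. The part of these cell types in the results below was not tested.

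Of the 5 genes, 1 was higher and 3 were lower in CD36+ NK without overlap between the groups, beside 32.8% of all tested genes in either direction, but none was called. S1pr1 was the gene on the higher side, where 17.0% of all tested genes were without overlap, and S1pr2, S1pr4 and S1pr5 were on the lower side, where 15.7% were. The count of called genes was 0 of 5 by edgeR's quasi-likelihood test, beside 5.96% of all tested genes, and it was also 0 by DESeq2 and by edgeR's exact test. With no fold threshold, the quasi-likelihood test gave 1 of 5 (S1pr1) an adjusted p below 0.05, beside 10.5% of all tested genes (5.07% on the higher and 5.44% on the lower side). It gave 4 of 5 an unadjusted p below 0.05, beside 26.3%. At any fold, DESeq2 and the exact test passed S1pr2, S1pr4 and S1pr5 as well. Those tests also called more of all tested genes past 2-fold (1143 and 1243, against 880). The median log2 fold change of the 5 genes was -0.65, and that of all tested genes was 0.01. Gene positions below are those of the deposited table, whose build is not named and differs from that of the promoter windows. In the GRCm38 annotation the coding sequence lies in 1 exon in the main transcript of each receptor and in 3 exons in Klf2.

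**Figure D1:**
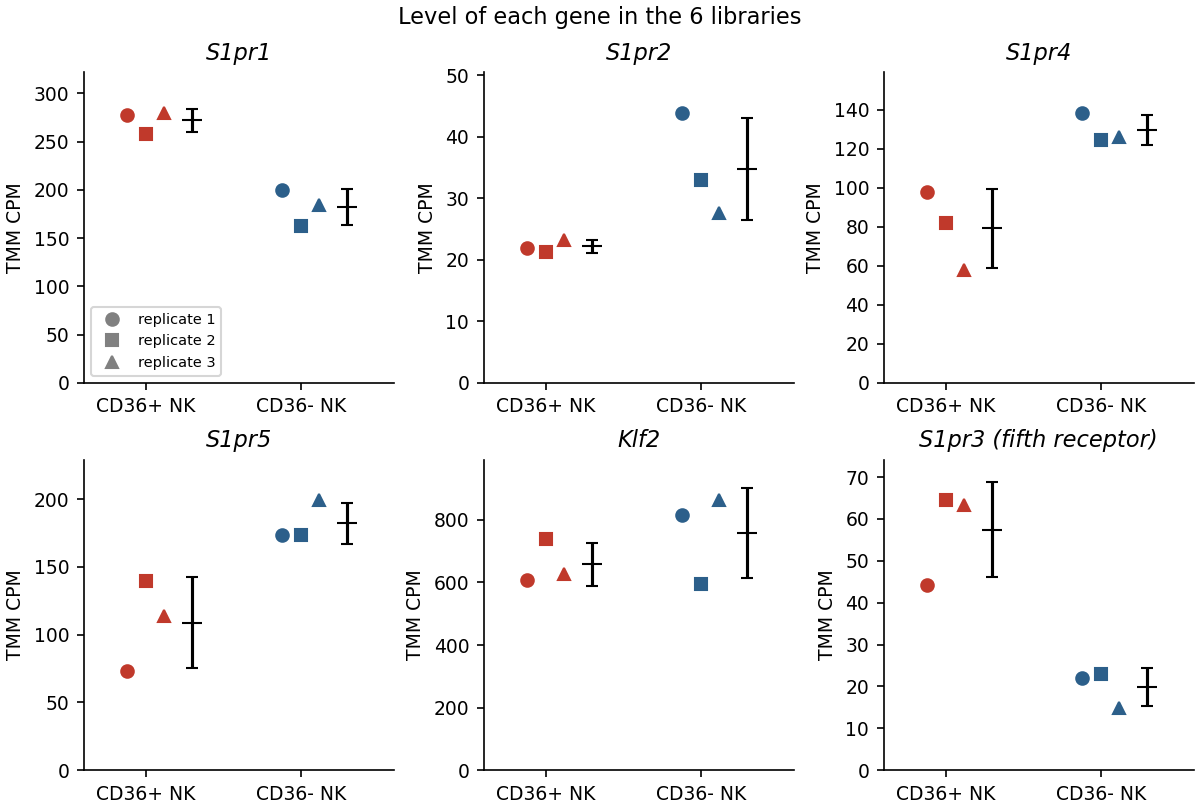
Level of S1pr1, S1pr2, S1pr4, S1pr5, Klf2 and S1pr3 in CPM (vertical axes, from 0) for the 3 CD36+ NK and 3 CD36- NK libraries, with replicates as symbols and the mean ± SD beside them. S1pr1 and S1pr3 sit higher in every CD36+ NK library, S1pr2, S1pr4 and S1pr5 sit lower, and the groups overlap for Klf2.

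S1pr1, the main egress receptor of lymphocytes (ENSMUSG00000045092, chr3:115504082-115508721, minus strand), was more abundant in CD36+ NK. The CD36+ NK libraries were at 278, 258 and 280.01 CPM, and the CD36- NK libraries were at 199.5, 163 and 184 CPM. Every CD36+ NK library was above every CD36- NK library, with means of 272 ± 12.02 CPM and 182 ± 18.4 CPM (SD, n = 3 each). The log2 fold change was 0.58 (SE 0.10, 95% interval 0.33 to 0.82, edgeR adjusted p = 0.0175), so the interval lay short of the 2-fold threshold. The adjusted p was 0.0564 with CD36+ NK replicate 2 left out, 0.0723 with CD36+ NK replicate 3 left out and 0.0527 with CD36- NK replicate 3 left out. The B cell markers, which B cells carry together with S1pr1, were higher in the same libraries. All 10 B cell genes had a log2 fold change above 0 with a median of 0.54, 6 of them passed the adjusted p and 1 of these, the complement receptor Cr2, was called. Ms4a1, which encodes the surface protein CD20, was at 778 ± 76.7 CPM against 484 ± 47.1 CPM.

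S1pr5, the egress receptor of mature NK cells (ENSMUSG00000045087, chr9:21154208-21159739, minus strand), was less abundant in CD36+ NK in these libraries, but the difference did not pass the adjusted threshold. It was at 73.1, 140 and 113 CPM in CD36+ NK and at 173, 174 and 199 CPM in CD36- NK. The groups did not overlap, and the CD36+ NK libraries were spread more widely, replicate 1 being the lowest. The means were 109 ± 33.6 CPM and 182 ± 15.0 CPM (SD, n = 3 each), with a log2 fold change of -0.74 (SE 0.22, 95% interval -1.26 to -0.22, edgeR adjusted p = 0.0767). With 1 library left out at a time the log2 fold change was -0.96 to -0.54 and the adjusted p 0.0528 to 0.191. At any fold the adjusted p was 0.0112 by DESeq2 and 0.0190 by edgeR's exact test on all libraries. It was 0.0406 with the block on how the library name is written, described below. CD36+ NK replicate 1 also stood apart in other marker lists. Its summed level was the highest for T cell genes (399 CPM against 46.2 to 179 CPM in the other libraries), neutrophil genes (5455 against 916 to 4618 CPM) and erythroid genes (811 against 78.5 to 391 CPM). The antisense gene Gm48303 overlaps S1pr5 over 731 bases and had 0 counts in every library.

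S1pr4, a receptor of hematopoietic cells (ENSMUSG00000044199, chr10:81333581-81335966, minus strand), was at 98.1, 82.1 and 57.7 CPM in CD36+ NK and at 138, 124 and 126 CPM in CD36- NK. The groups did not overlap, and the spread was again wider among the CD36+ NK libraries, where replicate 3 was the lowest. The means were 79.3 ± 20.3 CPM and 129.6 ± 7.66 CPM (SD, n = 3 each), and the log2 fold change of -0.71 (SE 0.18, 95% interval -1.14 to -0.28) missed the threshold with an edgeR adjusted p of 0.0538. Without CD36+ NK replicate 1 the log2 fold change was -0.90 and the adjusted p was 0.0230, whereas without CD36+ NK replicate 3 they were -0.52 and 0.0812. With each of the other libraries left out the adjusted p was 0.0924 to 0.153. At any fold it was 0.00552 by DESeq2 and 0.00770 by edgeR's exact test. It was 0.0368 with the block on how the library name is written, described below.

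S1pr2, the receptor that can oppose migration (ENSMUSG00000043895, chr9:20873657-20888077, minus strand), was less abundant in CD36+ NK in these libraries without passing the adjusted threshold. It was at 22.0, 21.3 and 23.3 CPM in CD36+ NK and at 43.9, 32.9 and 27.5 CPM in CD36- NK. The CD36+ NK libraries were close to each other and below all CD36- NK libraries, among which replicate 1 was the highest. The means were 22.2 ± 1.02 CPM and 34.8 ± 8.34 CPM (SD, n = 3 each), with a log2 fold change of -0.65 (SE 0.18, 95% interval -1.07 to -0.23, edgeR adjusted p = 0.0626). Leaving out 1 library at a time gave log2 fold changes of -0.80 to -0.46. The adjusted p was 0.0449 without CD36- NK replicate 3, 0.121 without CD36- NK replicate 1, where the difference was smallest, and 0.0900 to 0.180 over the 5 fits other than the first. At any fold it was 0.0146 by DESeq2 and 0.0238 by edgeR's exact test on all libraries. The intervals of S1pr2, S1pr4 and S1pr5 all reached past a 2-fold difference.

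Klf2, the factor that switches on S1pr1 (ENSMUSG00000055148, chr8:73072877-73075500, plus strand), was abundant in every library and did not separate the groups. It was at 608, 738 and 628 CPM in CD36+ NK and at 816, 594 and 864 CPM in CD36- NK. The lowest value of all belonged to a CD36- NK library, and the remaining 2 CD36- NK libraries were above all CD36+ NK libraries. The means were 658 ± 69.7 CPM and 758 ± 144 CPM (SD, n = 3 each), with a log2 fold change of -0.20 (SE 0.16, 95% interval -0.58 to 0.17, edgeR adjusted p = 0.486). Klf2 and S1pr1 therefore had fold changes of opposite sign, the former with an interval that included 0.

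The receptor that completes the family, S1pr3, is known from endothelial and myeloid cells and was called. S1pr3 (ENSMUSG00000067586, chr13:51562675-51576833, plus strand) was at 44.3, 64.5 and 63.4 CPM in CD36+ NK and at 21.9, 23.1 and 14.7 CPM in CD36- NK. The groups were well apart, and the log2 fold change was 1.53 (SE 0.22, 95% interval 1.02 to 2.03, edgeR adjusted p = 0.00776). It was the receptor with the widest difference between the groups. Of the 10 sinusoidal endothelial genes, 6 were tested, all with a log2 fold change above 0, and 1 was called, the scavenger receptor Stab1 (3.02, adjusted p = 0.0142). Their summed level was 227 to 313 CPM against 156 to 173 CPM, most of it from Pecam1, which leukocytes also express. The untested genes Lyve1, Clec4g, Tek and Ptprb had means of 0.29, 0.55, 0.057 and 0.11 CPM in CD36+ NK. Kdr was at 0.85 CPM against 0.78 CPM. The macrophage and monocyte sums given above were also higher in CD36+ NK, whereas those of neutrophil and dendritic cell genes overlapped. Which cells carried S1pr3 was not tested. S1pr3 had levels that followed those of the B cell gene Ms4a1 (Pearson r = 0.999), the calcineurin regulator Rcan1 (0.997) and the antigen presentation gene Cd74 (0.997) most closely over the 6 libraries.

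**Figure D2:**
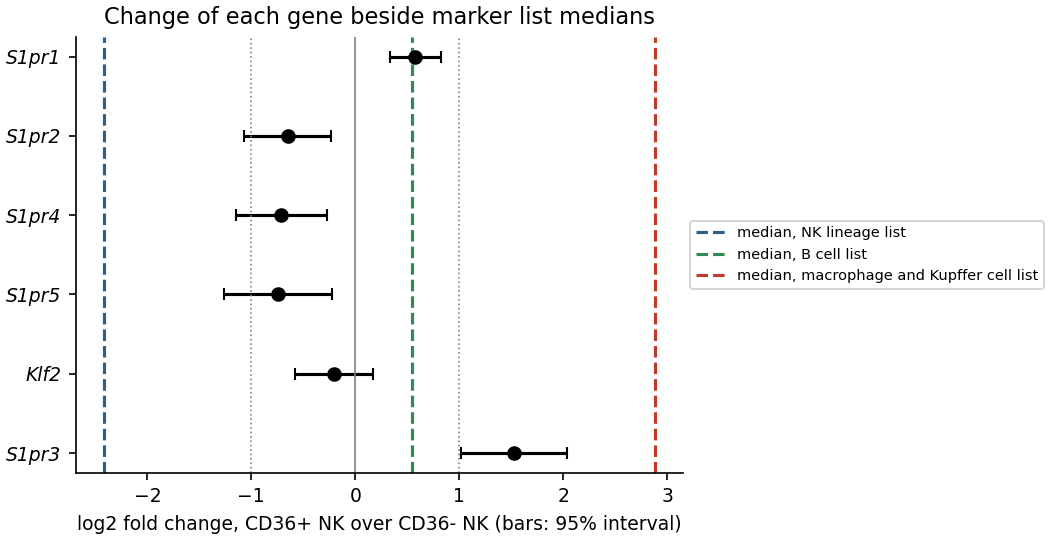
Log2 fold change of CD36+ NK over CD36- NK (horizontal axis) with its 95% interval for S1pr1, S1pr2, S1pr4, S1pr5, Klf2 and S1pr3; dotted lines mark 2-fold and dashed lines the medians of the NK lineage, B cell and macrophage lists. S1pr1 lies at 0.58, near the B cell median of 0.54, and no gene reaches the NK lineage median of -2.42 or the macrophage median of 2.89.

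Levels of different genes were compared per length, as the deposited FPKM. In CD36+ NK the order of the mean levels was Klf2 (351 ± 37.5 FPKM), S1pr1 (88.0 ± 4.39), S1pr5 (42.7 ± 12.8), S1pr4 (32.9 ± 9.28), S1pr3 (12.6 ± 2.26) and S1pr2 (2.49 ± 0.085). Only the neighbours S1pr5 and S1pr4 overlapped there. In CD36- NK the order was Klf2 (414 ± 72.5 FPKM), S1pr5 (73.7 ± 4.98), S1pr1 (60.5 ± 5.56), S1pr4 (55.0 ± 3.24), S1pr3 (4.53 ± 1.09) and S1pr2 (4.01 ± 0.98). S1pr1 overlapped S1pr4 and S1pr3 overlapped S1pr2 in this group. S1pr1 and S1pr5 thus changed places between the groups, and neither overlapped the other within a group. The length behind the FPKM of S1pr2 was 8779 bases, whereas its longest annotated transcript has 6394 exonic bases, which lowers its FPKM and leaves the order of S1pr2 and S1pr3 in CD36- NK uncertain.

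The make-up of the receptor transcripts was described by the share of each receptor in the summed FPKM of the 5 receptors. The sum was 176, 189.3 and 171 FPKM in CD36+ NK and 205, 189.5 and 199 FPKM in CD36- NK. With TMM scaling, tried after seeing these sums, it was 174, 192 and 178 CPM per kilobase in CD36+ NK and 203, 184 and 199.6 in CD36- NK, so the groups overlapped. S1pr1 made up 52.5%, 44.2% and 51.5% of it in CD36+ NK and 32.3%, 29.1% and 30.3% in CD36- NK. S1pr5 made up 16.8%, 29.1% and 25.5% in CD36+ NK and 34.2%, 37.7% and 39.98% in CD36- NK. S1pr1 was thus the leading S1P receptor transcript in CD36+ NK, and S1pr5 was the leading one in CD36- NK. Which cells of the libraries carried these transcripts was not tested. The share of S1pr4 was 18.4 ± 5.04% against 27.8 ± 1.18%, that of S1pr3 was 7.06 ± 1.20% against 2.30 ± 0.59%, and that of S1pr2 was 1.40 ± 0.12% against 2.02 ± 0.45% (SD, n = 3 each). The groups did not overlap for any of the 5 shares, each with a two-sided exact permutation p of 0.1, which is the smallest that 3 against 3 libraries allow (0.1 after Benjamini-Hochberg adjustment over the 5 receptors). The receptors were already apart between the groups in CPM at similar sums, and the shares of a library depend on each other. The shares are therefore a description and not 5 separate results. The ratio of S1pr1 to S1pr5 FPKM was 3.12, 1.52 and 2.03 in CD36+ NK and 0.944, 0.770 and 0.759 in CD36- NK (exact permutation p = 0.1). The ratio of S1pr5 to S1pr4 was 1.40 ± 0.61 against 1.35 ± 0.16 (exact permutation p = 1), and the wide spread among the CD36+ NK libraries came with replicate 1, the only library with more S1pr4 than S1pr5.

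**Figure D3:**
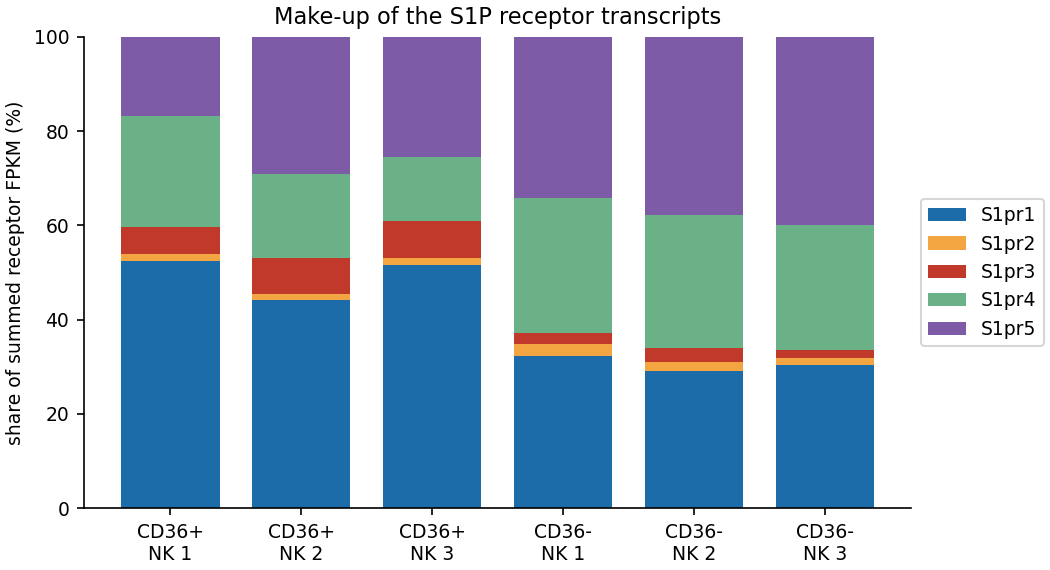
Share of each S1P receptor in the summed FPKM of the 5 receptors (vertical axis, percent) in each of the 6 libraries, drawn as stacked bars. S1pr1 takes 44.2% to 52.5% of the bar in CD36+ NK against 29.1% to 32.3% in CD36- NK, and S1pr5 takes 16.8% to 29.1% against 34.2% to 39.98%.

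Each of the 5 genes was also set against the NK lineage genes, whose mean differed by -2.35 (log2) between the groups. The mean log2(CPM + 2) of the 12 NK lineage genes was 6.53 to 6.86 in CD36+ NK, and 8.91 to 9.28 for the CD36- NK libraries. Relative to this mean, S1pr1 was at 1.35 ± 0.23 in CD36+ NK and at -1.58 ± 0.15 in CD36- NK, and Klf2 was at 2.61 ± 0.18 and 0.45 ± 0.13 (log2, SD, n = 3 each). S1pr2, S1pr4 and S1pr5 were also higher in CD36+ NK on this scale, with differences of 1.77, 1.62 and 1.57. Since none of the 5 genes differed as far downward as the reference, the direction on this scale was fixed by the reference and is given as a description. Against the mean of the 10 B cell genes, a scale added after the B cell markers had been seen, the picture differed. S1pr1 differed by 0.01 (-1.21 ± 0.14 against -1.23 ± 0.16), and S1pr2, S1pr4, S1pr5 and Klf2 were lower in CD36+ NK by -1.15, -1.29, -1.34 and -0.75 (log2). The direction of these last genes was fixed here too, since their log2 fold changes were below 0 and those of the B cell genes above 0 (median 0.54). The value of S1pr1 restates that its log2 fold change of 0.58 was near that median. Both are descriptions.

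**Figure D4:**
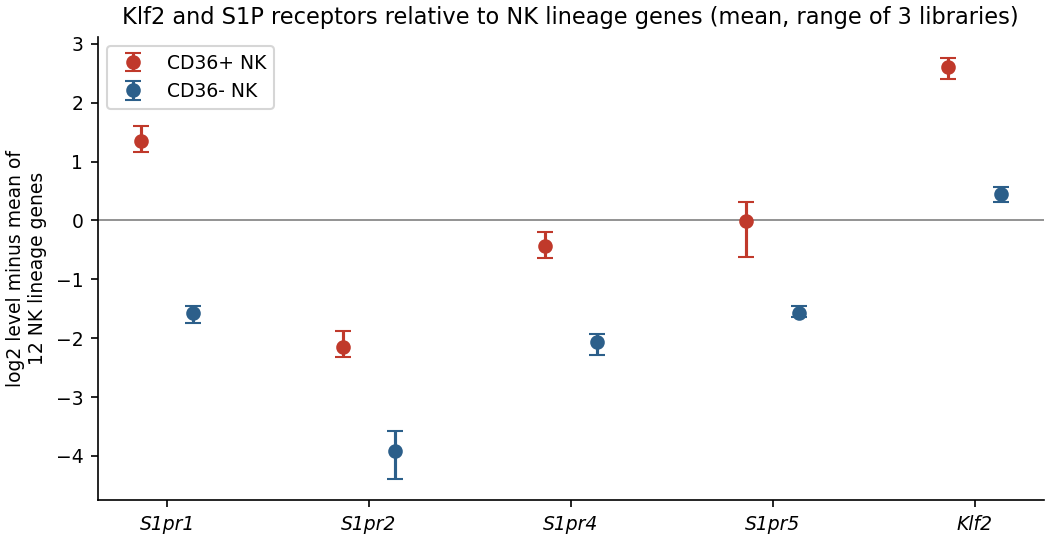
Log2 level of S1pr1, S1pr2, S1pr4, S1pr5 and Klf2 minus the mean of 12 NK lineage genes (vertical axis), with points for the mean of 3 libraries and bars for their range. Every gene is higher in CD36+ NK on this scale, by 2.93 for S1pr1, 2.16 for Klf2 and 1.57 to 1.77 for the others.

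Over the 6 libraries the 5 genes followed different genes most closely. Levels of S1pr1 were close to those of the nucleosome-binding gene Hmgn1 (Pearson r = 0.990) and 1700113A16Rik (0.988). S1pr2 was closest to Dexi (0.992), Akt2-ps (0.991) and Mfap1a (0.988), and S1pr4 was closest to Gm26910 (0.994), the ubiquitin ligase gene Rnf128 (0.993) and Podnl1 (0.993). S1pr5 was closest to Zfp664 (0.998), Vps33a (0.996) and Desi2 (0.995). Klf2 was closest to Klhl15 (0.989), Fbxw8 (0.989) and Arl4a (0.984). Among the 5 genes themselves, S1pr2 and S1pr4 ran together (r = 0.73), S1pr1 ran opposite to S1pr5 (r = -0.82), and Klf2 had a weak relation to S1pr1 (r = -0.29). These correlations mix the difference between the groups with the spread within them and are given as descriptions.

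Of the 72 other genes listed for the pathway, 70 were tested, 5 were called higher and 3 were called lower in CD36+ NK, and their median log2 fold change was 0.03. Each list of the pathway is described by these counts, beside the 2.98% of all tested genes called in each direction. Called members and the most expressed members of each list are named, together with genes that passed only the adjusted p, which were chosen after their values were seen.

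**Figure D5:**
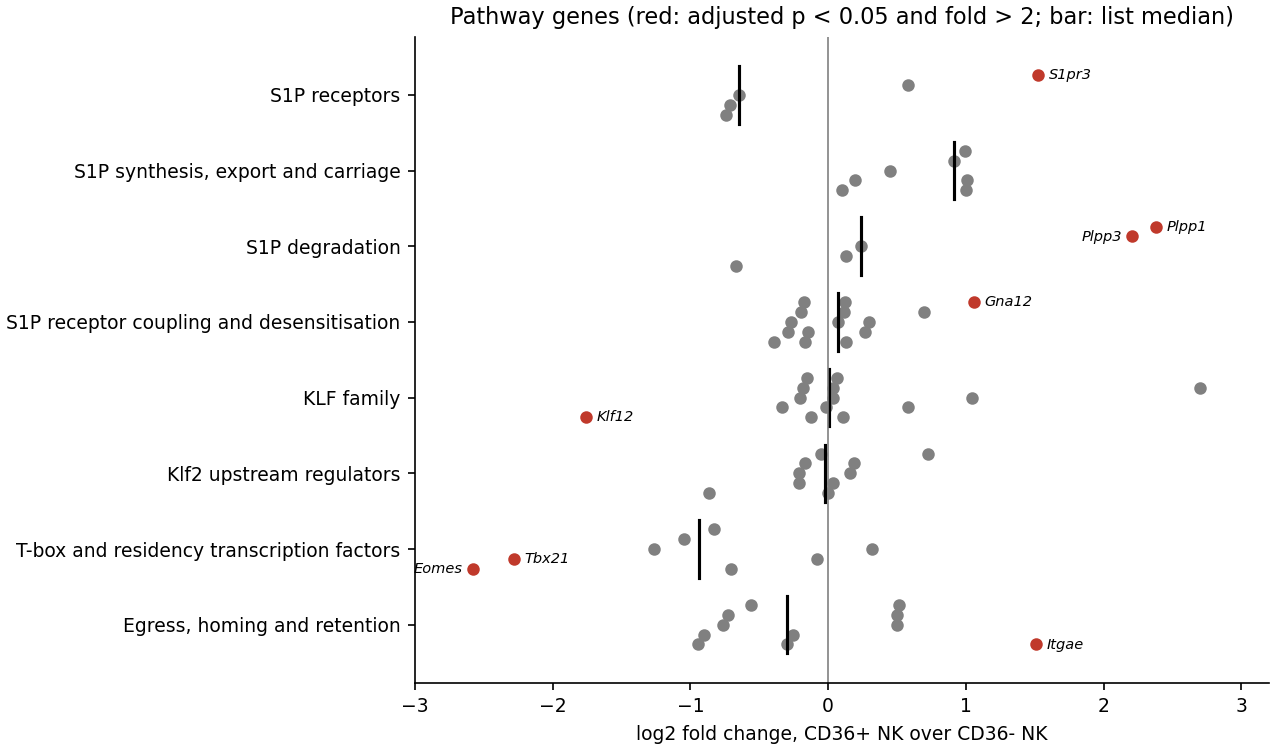
Log2 fold change of CD36+ NK over CD36- NK (horizontal axis) for each tested gene of 8 pathway lists, with called genes in red and the list median as a bar. The called genes are S1pr3, Plpp1, Plpp3, Gna12 and Itgae on the higher side and Klf12, Eomes and Tbx21 on the lower side.

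Genes of S1P synthesis, export and carriage had a median log2 fold change of 0.92, and none of the 7 tested of 8 was called. The median was the value of the sphingosine kinase gene Sphk1, which had only 189 counts over the 6 libraries (SE 0.84, edgeR adjusted p = 0.555). Above it lay the ceramidases Asah1, Acer2 and Acer3 (0.99, 1.01 and 1.00). The ceramidase Asah1, which frees the sphingosine that S1P is made from, passed the adjusted p but not the fold threshold, at 191 ± 33.9 CPM against 95.8 ± 20.2 CPM (log2 fold change 0.99, edgeR adjusted p = 0.0233). It did not pass when replicate 2 or 3 of CD36+ NK or replicate 1 of CD36- NK was left out. Sphk2, a sphingosine kinase, was at 56.2 ± 4.79 CPM against 52.5 ± 2.07 CPM (log2 fold change 0.10, adjusted p = 0.594). Spns2, the exporter of S1P, had a log2 fold change of 0.20 (adjusted p = 0.661), and Apom, a carrier of S1P in blood, had 5 counts over the 6 libraries and was not tested.

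Genes that break down S1P were called 2 times among 5 tested, both higher. Plpp1, a lipid phosphatase of the cell surface, was at 15.8 ± 4.64 CPM against 3.02 ± 1.94 CPM (log2 fold change 2.38, SE 0.46, edgeR adjusted p = 0.0231), and its relative Plpp3 was at 40.7 ± 24.1 CPM against 8.81 ± 5.47 CPM (2.21, SE 0.56, adjusted p = 0.0499). Both calls were lost when replicate 2 or 3 of CD36+ NK or replicate 1 of CD36- NK was left out, and that of Plpp3 also when replicate 3 of CD36- NK was. Plpp3, at the edge of the threshold, was called in 8 of 16 alternatives and was also lost with relative log expression normalization, with no filter on low counts and at equal depth. The S1P lyase Sgpl1 was at 134 ± 46.0 CPM against 113 ± 13.97 CPM (log2 fold change 0.24, adjusted p = 0.615) and the S1P phosphatase Sgpp1 at 84.0 ± 8.64 CPM against 76.8 ± 8.39 CPM (0.13, adjusted p = 0.561).

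Of the 15 genes that couple or desensitize S1P receptors, 1 was called, and the median log2 fold change was 0.07. Gna12, a G protein subunit downstream of S1PR2, was at 95.4 ± 32.9 CPM against 45.8 ± 7.11 CPM (log2 fold change 1.06, SE 0.24, edgeR adjusted p = 0.0372). The call was lost when replicate 2 or 3 of CD36+ NK or replicate 1 or 3 of CD36- NK was left out. Dock2, an activator of Rac in migrating lymphocytes, had a log2 fold change of -0.39 (adjusted p = 0.0388), which was above 0.05 when any library was left out. Its target Rac2 was at 915 ± 46.3 CPM against 1105 ± 108 CPM (-0.27, adjusted p = 0.155), and the guanine nucleotide exchange factor Arhgef1 was at 878 ± 37.7 CPM against 989 ± 98.3 CPM (-0.17, adjusted p = 0.357).

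Among the 14 KLF family genes, 1 was called and the median log2 fold change was 0.01. Klf12 fell to 6.10 ± 2.24 CPM in CD36+ NK against 20.8 ± 6.07 CPM in the other group (log2 fold change -1.76, SE 0.32, edgeR adjusted p = 0.0182), a call lost with either replicate 3 library left out. Klf6, the most expressed of the remaining KLF genes, was at 736 ± 146 CPM against 746 ± 231 CPM (-0.02, adjusted p = 0.974). Of the 10 genes upstream of Klf2 none was called, and the median was -0.02. Pik3r1, the regulatory subunit of the kinase that restrains FOXO factors, passed the adjusted p alone, at 180 ± 6.69 CPM against 329 ± 57.8 CPM (-0.87, adjusted p = 0.0110), but not without CD36+ NK replicate 2 (adjusted p = 0.0564). Mef2d and Akt1, the most expressed genes of the list, had log2 fold changes of 0.03 and 0.16 (adjusted p = 0.935 and 0.491).

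T-box and residency factors had 2 of 8 genes called lower and a median of -0.94. Tbx21, which encodes the T-bet that S1pr5 needs, was at 49.9 ± 5.83 CPM in CD36+ NK and 243 ± 31.8 CPM in CD36- NK (log2 fold change -2.28, SE 0.14, edgeR adjusted p = 0.000428). Eomes, the related factor of conventional NK cells, was at 35.2 ± 2.71 CPM and 211 ± 35.9 CPM (-2.58, SE 0.15, adjusted p = 0.000428). Both calls were kept when any library was left out. Runx3 passed the adjusted p alone (-0.70, adjusted p = 0.00791), and Zeb2, a factor of NK cell maturation, did not (-0.08, adjusted p = 0.864). The log2 fold changes of Tbx21 and Eomes were close to the NK lineage median of -2.42, whereas that of S1pr5 was -0.74 in the same libraries.

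The 11 genes of egress, homing and retention had 1 called gene and a median of -0.30. Itgae, the integrin chain that tethers lymphocytes to epithelium, was at 6.46 ± 1.70 CPM against 2.27 ± 0.82 CPM (log2 fold change 1.51, SE 0.34, edgeR adjusted p = 0.0362), and the call was lost when any library other than CD36- NK replicate 2 was left out. The chemokine receptor Cxcr3 (-0.95, adjusted p = 0.0188) and the residency integrin Itga1 (-0.90, adjusted p = 0.00996) passed the adjusted p on the lower side without reaching 2-fold. Itga1 but not Cxcr3 kept an adjusted p below 0.05 when any library was left out. Cd69, whose product removes S1PR1 from the cell surface, was at 227 ± 11.8 CPM against 271 ± 101 CPM (-0.26, adjusted p = 0.614). The integrin chain Itgb7 was at 294 ± 73.1 CPM against 486 ± 62.7 CPM (-0.72, adjusted p = 0.0541).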

How the data were processed

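RNA-seq covered 3 samples of each group. The authors filtered reads with Seqtk, mapped them with HISAT2 2.0.4 and counted fragments with StringTie, and they deposited gene counts without normalization beside FPKM values (counts per length and library total). The submitters' processing notes name the rat build mRatBN7.2, whereas the table holds mouse Ensembl genes, so the build of its coordinates is not named and they are given as deposited. The lines of 2 genes were broken and were rejoined. Library totals were 10292480 to 13787189 counts, and replicates differed by more than counting error (chi-square per degree of freedom 14.8 to 29.2), so the spread between libraries limits the precision.

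Counts were tested with edgeR 4.0.16 in R 4.3.3 (filterByExpr with a minimum count of 10, TMM, quasi-likelihood test without a block, Benjamini-Hochberg adjustment over 14761 genes). Called genes differed by more than 2-fold at an adjusted p below 0.05, as in the study. SE is the log2 fold change over the square root of F. The script was tested on simulated counts. Exact permutation tests used scipy 1.17.1 in Python 3.11.15, with a pseudocount of 2 on log2 scales. FPKM served to compare levels between genes and for receptor sums, shares and ratios per library.

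The genes and lists were chosen with earlier results of these data known. Named are the 5 genes, S1pr3, Cd36, the called and the 2 most expressed uncalled genes of each pathway list, 3 genes of highest r for each gene, and the most expressed genes of marker lists; other names were chosen after their values were seen, and a few genes that this rule takes are not reported here. Replicate numbers come from titles, and no source ties same-numbered samples to 1 animal. Alternatives were blocks, DESeq2 1.42.0, edgeR's exact test, other normalizations and filters, equal depth, no fold threshold and each library left out.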

Additional observations from a re-analysis of the deposited data

How the results depend on the processing

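No alternative called S1pr1, S1pr2, S1pr4, S1pr5 or Klf2 past the 2-fold threshold, and with no fold threshold the count was 1 in the fit reported. The other genes of the pathway lists, S1pr3 included, had 8 calls in the fit reported, 15 with no fold threshold, and 3 to 11 when 1 library was left out. All tested genes had 880 calls, 1552 with no fold threshold and 417 to 1160 when 1 library was left out, the low counts coming without CD36+ NK replicate 2 (418) or 3 (451) and without CD36- NK replicate 1 (417) or 3 (431). The cause was not tested, and leaving out CD36+ NK replicate 1 (1122) or CD36- NK replicate 2 (1160) gave more calls.

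With the replicate number as a block, the pathway lists had 4 calls and all tested genes 560, and the calls of Plpp1, Plpp3, Gna12 and Itgae were lost, as were the adjusted p of Asah1, Dock2 and Cxcr3. The block gave no call to the 5 genes. Same-numbered samples had correlated deviations of 0.367, 0.087 and -0.086, so the numbers were not taken to pair them.

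Directions of the log2 fold changes were kept in all 16 alternatives, at 0.50 to 0.64 for S1pr1, -0.80 to -0.46 for S1pr2, -0.90 to -0.52 for S1pr4, -0.96 to -0.54 for S1pr5, -0.35 to -0.11 for Klf2 and 1.34 to 1.67 for S1pr3. At any fold, S1pr2, S1pr4 and S1pr5 passed the adjusted p with DESeq2 (0.0146, 0.00552 and 0.0112) and with edgeR's exact test (0.0238, 0.00770 and 0.0190). S1pr4 and S1pr5 also passed with a block on how the library name is written (0.0368 and 0.0406) or on assumed pairs of libraries (0.0303 and 0.0387). These pairs joined library-name numbers 1, 2 and 3 of CD36+ NK with 6, 2 and 1 of CD36- NK, and the names do not state them. Klf2 passed in none of the 16 alternatives (0.133 to 0.779). With the B cell list in place of the NK lineage list, a reference chosen after seeing the data, the differences of S1pr2, S1pr4, S1pr5 and Klf2 turned to -1.15, -1.29, -1.34 and -0.75. These directions were fixed beforehand, since these genes had log2 fold changes below 0 and the B cell genes above 0. The order of the levels of S1pr1, S1pr2, S1pr4, S1pr5 and Klf2 in each group was kept in the alternatives run for it, which did not place S1pr3. The directions of the receptor shares were kept too, but their alternatives could not turn them. Scaling cancels within a library, and no share overlapped between the groups. The filter on low counts left 2 of the 72 pathway genes untested, Apom and Sgpp2.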
